A study of Homo sapiens with 8 samples.

Results

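Chaperones of the endoplasmic reticulum (ER) and of the heat shock response form a set of 35 genes, chosen by name from the 19479 genes listed in both RPKM tables. It holds 20 genes of the ER, 12 of the cytosol and nucleus, 2 of mitochondria and SERPINH1, the collagen chaperone HSP47 of the ER. RNA was sequenced from AC16, a dividing human cell line derived by fusion of cardiomyocytes from adult ventricles and transformed fibroblasts, in 8 libraries that fall into 4 groups of 2. In the 25 to 50 mM group, cells kept at 25 mM glucose were raised to 50 mM by adding 25 mM for 24 h, and the 25 mM group stayed at 25 mM. In the 5 to 50 mM group, cells kept at 5 mM glucose were raised to 50 mM by adding 45 mM for 24 h, and the 5 mM group stayed at 5 mM. Cells had been kept at their starting glucose for at least 3 passages. The series calls its replicates technical, so each p-value measures the spread between libraries only, and a difference between the culture kept at 25 mM and the one kept at 5 mM cannot be told apart from any other difference between these cultures. No osmotic control was analysed here.

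Library totals recovered from the tables ran from 21538898 to 27372851 reads. With 3 reads in a gene of 1 kb, the detection floor, a library reaches 0.110 to 0.139 RPKM (reads divided by the length of the gene and by library size). By the reads recovered, the least covered member still had 133 reads in a library. All 35 members passed the filter on low values in every comparison. Of 16 cardiomyocyte markers, 1 to 3 reached 1 RPKM in a library. Cardiac troponin T (TNNT2) never exceeded 2 reads, and MYL2 and NKX2-5 were at 0 reads in all 8 libraries, so the line carried few defining transcripts of its labelled cell type. Of 12 fibroblast markers, 11 or 12 reached 1 RPKM in each library.

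Secreted and membrane proteins fold in the ER with the help of HSPA5 (BiP, an HSP70), HSP90B1 (GRP94, an HSP90), lectin chaperones and disulfide isomerases. When unfolded proteins accumulate there, the sensors IRE1 (ERN1), ATF6 and PERK (EIF2AK3) start the unfolded protein response. ATF6 and spliced XBP1 then induce chaperones through promoter sequences known as ER stress response elements (ERSE). In the cytosol, heat shock factor 1 (HSF1) induces HSP70, HSP90 and small heat shock proteins through heat shock elements (HSE). Beating cardiomyocytes depend on such proteins, among them CRYAB, to keep the contractile apparatus in order.

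Several members carry such elements in their promoters, which are shown here because the ER results are set against them further on. RefSeq windows of GRCh38.p14, from 250 bases before to 50 after a gene's start, were matched for 33 of the 35 members, all but PDIA3 and CRYAB. They were searched on both strands for these elements: ERSE (CCAAT, then 9 bases of any kind, then CCACG), ERSE-II (ATTGG, then any base, then CCACG), the unfolded protein response element UPRE (TGACGTGG) and HSE (GAA, TTC and GAA, or TTC, GAA and TTC, with any 2 bases between them). ERSE was in the windows of 7 members (CALR, CANX, CRELD2, HSP90B1, HSPA5, PDIA6 and XBP1), against 0.0769% of all 35116 windows. ERSE-II was in 3 members (HERPUD1, HYOU1 and SDF2L1), against 0.0541% of windows, and UPRE in HYOU1 alone, against 0.729%. HSE was in 7 members (CHORDC1, DNAJA1, HSP90AA1, HSP90AB1, HSPA8, HSPD1 and SERPINH1), against 0.490%. A member was counted if any of its windows held a match, and some members have several windows. The shares over all windows count single windows, so the measures are not alike. A match is a description of letters, not a proven site. These elements are known from promoters of chaperone genes. Matches among the members were thus to be found in advance and are no independent result. The windows of HSPA5, chr9:125241294-125241593 (minus strand), HSP90B1, chr12:103930160-103930459 (plus strand), CALR, chr19:12938359-12938658 (plus strand), and HYOU1, chr11:119057156-119057455 (minus strand), belong to ER members that were higher at 25 mM than at 5 mM. Those of EDEM1, chr3:5187457-5187756 (plus strand), and DNAJB9, chr7:108569624-108569923 (plus strand), belong to the ER members that were lower, and that of XBP1, chr22:28800520-28800819 (minus strand), to the transcription factor itself. Another XBP1 window, chr22:28800028-28800327, held no match. DNAJC3, PDIA4 and MANF, also called higher, held no match and are not printed. Matched members that were not called (CANX, CRELD2, PDIA6, HERPUD1 and SDF2L1) are not printed either. The printed windows thus cannot show whether a match goes with direction. Each printed window is written 5′ to 3′ on the gene's strand, with ERSE and ERSE-II matches in capitals. In HYOU1 the first run of capitals is a UPRE that overlaps an ERSE-II.
HSPA5: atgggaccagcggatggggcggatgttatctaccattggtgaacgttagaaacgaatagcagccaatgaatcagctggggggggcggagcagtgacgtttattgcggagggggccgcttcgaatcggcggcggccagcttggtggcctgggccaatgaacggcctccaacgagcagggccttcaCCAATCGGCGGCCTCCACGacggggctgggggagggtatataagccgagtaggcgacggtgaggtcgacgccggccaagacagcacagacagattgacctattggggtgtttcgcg
HSP90B1: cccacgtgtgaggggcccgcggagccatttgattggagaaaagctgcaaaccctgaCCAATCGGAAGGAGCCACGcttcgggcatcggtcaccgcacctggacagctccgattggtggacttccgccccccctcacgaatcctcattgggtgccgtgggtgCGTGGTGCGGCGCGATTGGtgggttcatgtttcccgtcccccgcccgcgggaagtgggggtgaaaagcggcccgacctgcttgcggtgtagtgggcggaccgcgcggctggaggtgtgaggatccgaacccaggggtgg
CALR: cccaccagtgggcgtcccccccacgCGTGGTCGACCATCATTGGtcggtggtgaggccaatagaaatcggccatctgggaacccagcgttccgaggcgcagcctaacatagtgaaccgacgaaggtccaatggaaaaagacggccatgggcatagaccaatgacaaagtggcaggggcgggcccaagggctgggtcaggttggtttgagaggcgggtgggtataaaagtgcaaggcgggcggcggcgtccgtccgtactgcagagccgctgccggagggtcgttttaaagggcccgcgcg
HYOU1: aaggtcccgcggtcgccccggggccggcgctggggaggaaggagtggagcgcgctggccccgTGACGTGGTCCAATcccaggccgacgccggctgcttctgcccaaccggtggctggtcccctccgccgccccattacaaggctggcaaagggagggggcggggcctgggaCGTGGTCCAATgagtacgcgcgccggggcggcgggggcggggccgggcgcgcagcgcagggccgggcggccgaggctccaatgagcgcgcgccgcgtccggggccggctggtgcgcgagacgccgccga
EDEM1: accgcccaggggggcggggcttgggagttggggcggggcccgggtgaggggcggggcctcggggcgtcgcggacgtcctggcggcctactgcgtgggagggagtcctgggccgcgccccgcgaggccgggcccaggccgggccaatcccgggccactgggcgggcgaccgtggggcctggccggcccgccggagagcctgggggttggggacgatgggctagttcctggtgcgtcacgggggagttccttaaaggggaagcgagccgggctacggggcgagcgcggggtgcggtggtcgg
DNAJB9: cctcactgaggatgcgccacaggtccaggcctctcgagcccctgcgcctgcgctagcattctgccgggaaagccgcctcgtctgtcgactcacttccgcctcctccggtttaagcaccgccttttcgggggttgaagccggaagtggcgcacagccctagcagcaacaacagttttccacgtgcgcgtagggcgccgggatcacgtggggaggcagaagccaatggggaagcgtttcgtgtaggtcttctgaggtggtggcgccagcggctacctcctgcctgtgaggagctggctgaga
XBP1: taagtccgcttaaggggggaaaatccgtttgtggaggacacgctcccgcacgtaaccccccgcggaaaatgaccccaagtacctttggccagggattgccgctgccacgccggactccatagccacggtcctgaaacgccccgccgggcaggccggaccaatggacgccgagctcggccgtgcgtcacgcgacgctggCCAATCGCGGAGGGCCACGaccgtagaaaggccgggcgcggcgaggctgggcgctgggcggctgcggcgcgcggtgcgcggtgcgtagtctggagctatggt

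Most of these genes were abundant transcripts of the line. Several were not: SEL1L, DNAJC3, EDEM1 and DNAJB9, among others, averaged below the upper quartile of detected genes, 35.1 to 37.4 RPKM by library. Across all 8 libraries, 20 of the 35 stayed at or above 100 RPKM and 2, HSPA8 and HSP90AB1, did so at 1000 RPKM. HSPA8, the constitutive cytosolic HSP70, was the highest by its mean over the libraries, and CALR (calreticulin), a lectin chaperone of the ER lumen, came next. Most members varied little: in 24 of the 35 the highest library was within 1.5 times the lowest, and in 9 within 1.2 times. The widest ranges belonged to CRYAB (2.12 times), HSPA5 (1.95 times), DNAJB9 (1.84 times) and SERPINH1 (1.83 times). The 35 genes together took 2.08% and 2.12% of reads at 25 to 50 mM, 2.03% and 2.07% at 25 mM, 1.80% in both libraries at 5 to 50 mM, and 1.86% and 1.73% at 5 mM. The ER members made up most of that difference. They took 0.844% and 0.858% of reads at 25 mM, against 0.651% and 0.632% at 5 mM, whereas the cytosolic members took 1.03% and 1.06% at 25 mM, against 1.06% and 0.958% at 5 mM.

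**Figure D1:**
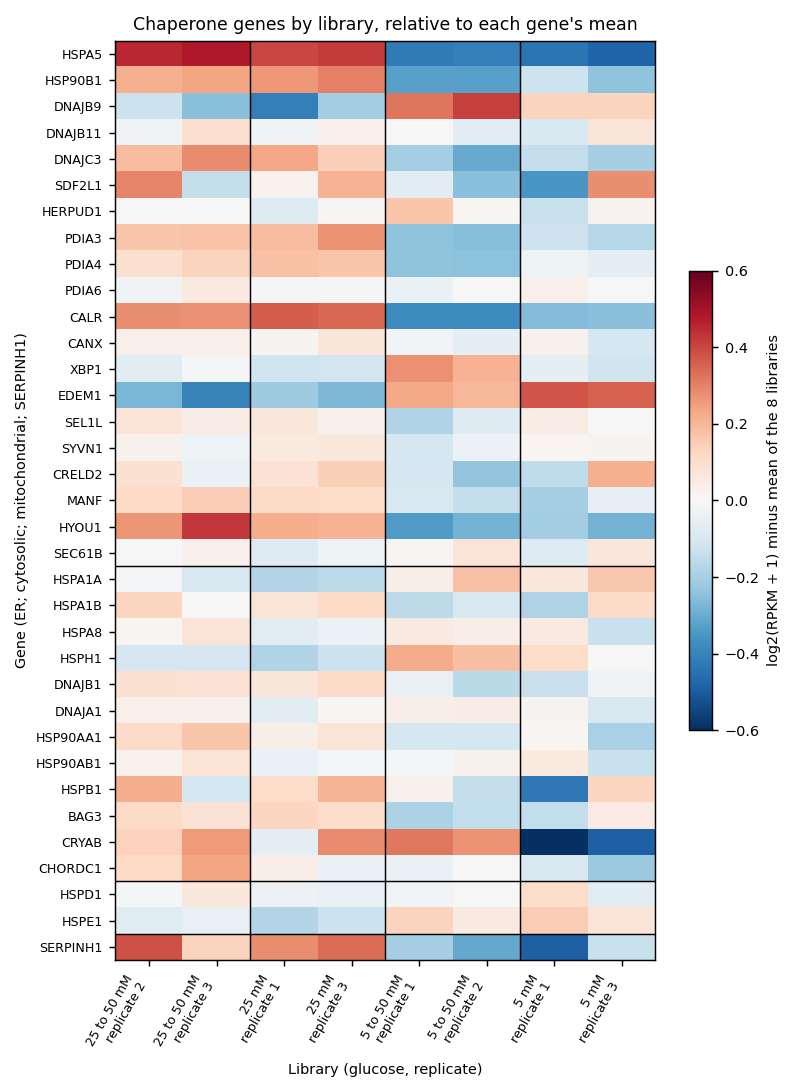
Each row is 1 of the 35 genes and each column 1 of the 8 libraries; the colour is log2(RPKM + 1) minus the gene's mean over the libraries, from -0.6 (blue) to 0.6 (red). HSPA5, HSP90B1, CALR, HYOU1, PDIA3 and DNAJC3 are red in the 4 libraries kept at 25 mM and blue in the 4 kept at 5 mM, EDEM1 and DNAJB9 run the other way, and CRYAB is blue in the 2 libraries of the 5 mM group.

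The lowest values as deposited were those of the stress-inducible HSP70 pair HSPA1A and HSPA1B, near copies whose reads can be assigned to either. Their summed RPKM, as deposited, was 11.4 and 10.3 at 25 to 50 mM, 10.7 and 11.0 at 25 mM, 9.75 and 10.5 at 5 to 50 mM, and 9.69 and 11.8 at 5 mM. Both 25 mM libraries lay above both 5 to 50 mM libraries, and every other pair of groups overlapped. The gene length recovered from the RPKM of both was 9630 bases, 5 times their coding length of 1926 bases. The reason is not known, and how reads of these copies were counted is not given. If whole reads were divided by that length, both values are low by that factor beside other genes. Their place among the members would then not hold per length. On that reading, and on the coding length, HSPA1B averaged 42.8 ± 0.876 RPKM at 25 mM, against 38.8 ± 6.40 RPKM at 5 mM, and HSPA1A 11.4 ± 0.152 RPKM at 25 mM, against 14.9 ± 0.962 RPKM at 5 mM (SD, n = 2 each). The lengths behind the other 33 members were 0.673 to 1.00 times their coding length in GENCODE 29. Comparisons of 1 gene between groups do not depend on this length. HSPA8, HSPD1, HSPE1 and both HSP90 genes have processed pseudogenes, and how reads shared with such copies were counted is not given in the sources used here.

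In the main fits, the differences that passed lay between cells kept at 25 mM and cells kept at 5 mM glucose, and most of them were in ER genes. That contrast was fitted on all 8 libraries and each rise on 4, so the counts of calls do not have equal power. In a joint fit of all 8 libraries, 2 members (CRYAB and XBP1) were called from 5 to 50 mM and 0 from 25 to 50 mM. HSPA5, the central HSP70 of the ER lumen, was 1.83-fold higher at 25 mM, CALR 1.52-fold and the ER HSP90 HSP90B1 1.38-fold, while EDEM1 and DNAJB9, which serve the degradation of misfolded ER proteins, were lower. By limma's moderated test over 11941 genes in all 8 libraries (Benjamini-Hochberg adjustment), 8 of 20 ER members were higher, 2 lower and 10 did not pass 0.05. Over all genes, 17.0% were called higher and 22.1% lower, so calls in this contrast were common. The share of all genes whose groups were apart in it is not given here, so groups that were apart only describe a gene. Of the 35, 10 were called higher and 4 lower, and leaving out any 1 library left 12 to 19 called. The median log2 change of the ER members was 0.08, against -0.0040 over all genes tested. In bulk RNA, fewer cells of a type and less RNA per cell cannot be told apart.

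HSPA5 (Entrez Gene 3309, chr9:125234853-125241343 in GRCh38.p14) had 639 and 645 RPKM at 25 mM, against 356 and 346 RPKM at 5 mM (log2 change 0.87, SE 0.04, adjusted p = 5.2e-06). Its 25 mM libraries lay far above its 5 mM libraries, and replicates of each group were close together. HYOU1 (GRP170; Entrez Gene 10525, chr11:119044188-119057205) is the large HSP70 that exchanges nucleotides on HSPA5. It had 99.5 and 98.8 RPKM at 25 mM, against 73.8 and 69.8 RPKM at 5 mM (log2 change 0.46, SE 0.06, adjusted p = 0.000974). DNAJC3 (p58IPK), a J-domain partner of HSPA5, had 30.9 and 29.0 RPKM at 25 mM, against 23.6 and 22.6 RPKM at 5 mM (log2 change 0.36, SE 0.07, adjusted p = 0.00483). HSP90B1 (Entrez Gene 7184, chr12:103930410-103947926) folds a restricted set of clients such as integrins. It had 776 and 799 RPKM at 25 mM, against 594 and 548 RPKM at 5 mM (log2 change 0.46, SE 0.05, adjusted p = 0.000257). The groups of all 4 of these genes were apart. MANF, a small ER protein that binds HSPA5 and can be secreted, had 161 and 161 RPKM at 25 mM, against 129.9 and 144 RPKM at 5 mM (log2 change 0.23, SE 0.06, adjusted p = 0.0131). Its 5 mM libraries differed more from each other than its 25 mM libraries did, and its call was lost without 25 mM replicate 1 (limma adjusted p = 0.0706) or replicate 3 (limma adjusted p = 0.0632), with a range of 0.00243 to 0.0706 over the alternatives.

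CALR (Entrez Gene 811, chr19:12938609-12944489) holds glycoproteins in the lumen while they fold and also buffers ER calcium. It had 1473 and 1456 RPKM at 25 mM, against 957 and 963 RPKM at 5 mM (log2 change 0.61, SE 0.04, adjusted p = 1.8e-05). Its membrane-bound relative CANX (calnexin) overlapped between the groups, with 481 and 502 RPKM at 25 mM and 485 and 442 RPKM at 5 mM. Of the disulfide isomerases, PDIA3 (ERp57), which works on glycoproteins bound by both lectins, had 536 and 568 RPKM at 25 mM, against 432 and 418 RPKM at 5 mM (log2 change 0.38, SE 0.04, adjusted p = 0.000425). PDIA4 (ERp72) had 166 and 165 RPKM at 25 mM, against 144 and 141 RPKM at 5 mM (log2 change 0.22, SE 0.04, adjusted p = 0.00405). PDIA6 had 242 and 242 RPKM at 25 mM, against 249 and 244 RPKM at 5 mM, and was not called (log2 change -0.03, SE 0.04, adjusted p = 0.649). Its sign turned to 0.05 with quantile normalization and to 0.04 between the cultures raised to 50 mM. The isomerases thus divided, with 2 called higher and 1 not called.

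The ER members called lower both act on misfolded proteins. EDEM1 (Entrez Gene 9695, chr3:5187707-5219958) hands mannose-trimmed glycoproteins to degradation. It had 14.3 and 13.7 RPKM at 25 mM, against 22.0 and 21.6 RPKM at 5 mM (log2 change -0.61, SE 0.07, adjusted p = 0.000387). DNAJB9 (ERdj4; Entrez Gene 4189, chr7:108569874-108574850) is a J-domain protein that recruits HSPA5 to IRE1 and to misfolded clients. It had 10.9 and 12.8 RPKM at 25 mM, against 16.4 and 16.4 RPKM at 5 mM (log2 change -0.44, SE 0.09, adjusted p = 0.00585). In both genes the groups did not overlap. The ubiquitin ligase of the same degradation route, SYVN1 (HRD1), had 33.2 and 33.3 RPKM at 25 mM, against 32.1 and 32.2 RPKM at 5 mM, and its partner SEL1L had 35.2 and 34.2 RPKM at 25 mM, against 34.6 and 33.5 RPKM at 5 mM. Neither was called, nor was HERPUD1, which links to that ligase, with 56.6 and 59.9 RPKM at 25 mM, against 54.4 and 60.6 RPKM at 5 mM. XBP1, counted as a gene with no split by spliced form, had 74.5 and 75.1 RPKM at 25 mM, against 78.0 and 74.6 RPKM at 5 mM.

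The remaining ER members overlapped between the groups. DNAJB11 (ERdj3), another partner of HSPA5, had 128 and 133 RPKM at 25 mM and 122 and 137 RPKM at 5 mM. SEC61B, a subunit of the channel through which proteins enter the ER, had 398 and 411 RPKM at 25 mM and 397 and 439.8 RPKM at 5 mM. SDF2L1, which works with DNAJB11, had 37.2 and 42.5 RPKM at 25 mM, against 28.5 and 44.6 RPKM at 5 mM, and CRELD2, an ER stress-inducible protein, had 33.7 and 35.2 RPKM at 25 mM, against 28.5 and 36.9 RPKM at 5 mM. For these 2 genes the 5 mM libraries lay farther apart than the group means. Set against the promoter matches, 4 of the 10 ER members with an ERSE or ERSE-II were higher at 25 mM (HSPA5, HSP90B1, CALR and HYOU1) and 0 were lower. Of the 9 ER members whose window held neither, 3 were higher (DNAJC3, PDIA4 and MANF) and 2 were lower (EDEM1 and DNAJB9). PDIA3, also called higher, had no window and is in neither count. These shares are a description with no test.

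**Figure D2:**
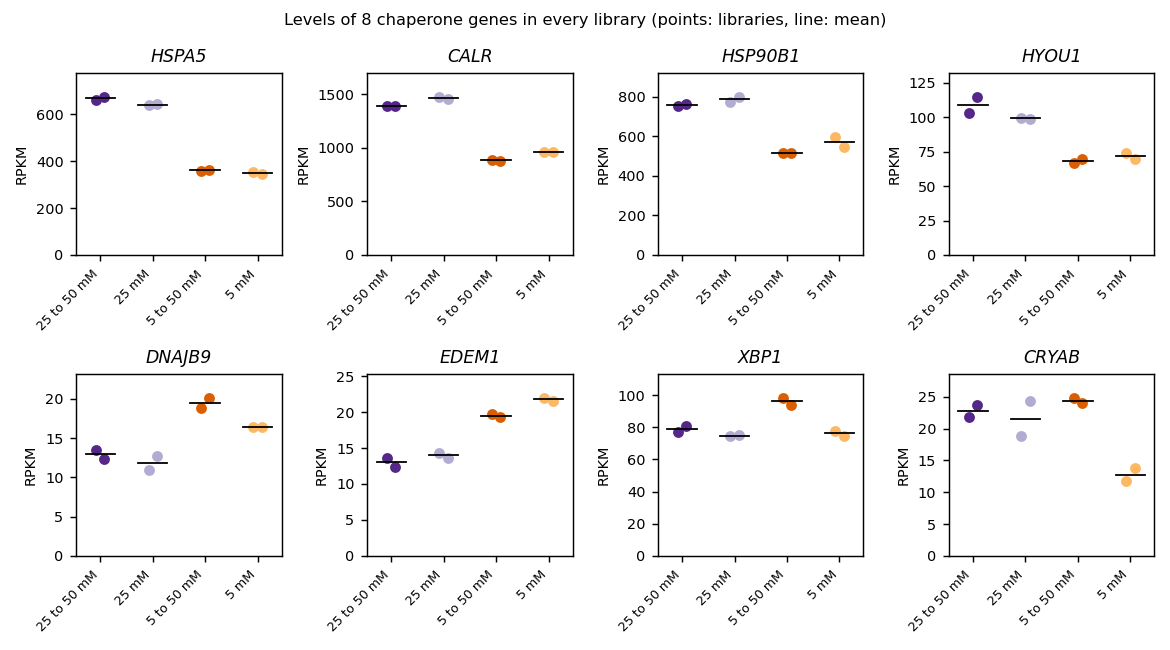
Points are single libraries and lines the means of the 2 libraries of a group, on a linear RPKM axis from 0 for each gene. HSPA5, CALR, HSP90B1 and HYOU1 are high in both groups kept at 25 mM, EDEM1 and DNAJB9 are low there, XBP1 stands highest at 5 to 50 mM, and CRYAB is lowest at 5 mM.

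Of the cytosolic chaperones, 1 of 12 was called higher at 25 mM than at 5 mM, 1 lower and 10 did not pass. These are 8.33% each way, against 17.0% higher and 22.1% lower over all genes. The most abundant of them were close between the groups. HSPA8 had 1709 and 1747 RPKM at 25 mM and 1857 and 1631 RPKM at 5 mM, and the constitutive HSP90 gene HSP90AB1 had 1106 and 1127 RPKM at 25 mM, against 1182 and 1036 RPKM at 5 mM. The inducible HSP90AA1 had 1112 and 1148 RPKM at 25 mM, against 1094 and 950 RPKM at 5 mM (log2 change 0.15, SE 0.07, adjusted p = 0.113). DNAJA1, a J-domain partner of HSPA8, had 503 and 532 RPKM at 25 mM, against 535 and 493 RPKM at 5 mM. None of these was called. HSPH1 (HSP110), which resets HSP70 after each folding cycle, was called lower, with 128 and 133 RPKM at 25 mM, against 157 and 145 RPKM at 5 mM (log2 change -0.21, SE 0.05, adjusted p = 0.0142). Without 25 mM replicate 1 this call was lost (limma adjusted p = 0.0917), as it was with quantile normalization (limma adjusted p = 0.0587) and under the replicate block (limma adjusted p = 0.0573), with a range of 0.00184 to 0.0917 over the alternatives.

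The cytosolic co-chaperones DNAJB1, BAG3 and CHORDC1 had higher values at 25 mM but did not pass the test. DNAJB1 (HSP40), the heat-inducible partner of HSP70, had 118 and 122 RPKM at 25 mM, against 102 and 111 RPKM at 5 mM (log2 change 0.17, SE 0.06, adjusted p = 0.0506). BAG3, which couples HSP70 to small heat shock proteins and autophagy in muscle, had 82.0 and 80.8 RPKM at 25 mM, against 67.6 and 77.5 RPKM at 5 mM (log2 change 0.17, SE 0.07, adjusted p = 0.0834). CHORDC1, an HSP90-binding protein, had 64.7 and 61.2 RPKM at 25 mM, against 58.7 and 53.8 RPKM at 5 mM (log2 change 0.16, SE 0.07, adjusted p = 0.0923). In these 3 genes every 25 mM library was above both 5 mM libraries. With 2 libraries a group this is common: groups did not overlap in 42.6% of all genes from 5 to 50 mM and 43.5% from 25 to 50 mM. The share for 25 mM against 5 mM is not given here. Without 5 mM replicate 3 DNAJB1 and BAG3 passed, and without 5 mM replicate 1 CHORDC1 and HSP90AA1 passed, with limma adjusted p of 0.0228, 0.00651, 0.0391 and 0.00496. Leaving out the other 5 mM library lowered each log2 change, to 0.12, 0.070, 0.097 and 0.047 for DNAJB1, BAG3, CHORDC1 and HSP90AA1, with limma adjusted p of 0.167, 0.302, 0.302 and 0.451. The small heat shock protein HSPB1 (HSP27) overlapped between the groups, with 515 and 549 RPKM at 25 mM and 354 and 521 RPKM at 5 mM.

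CRYAB (alpha-B crystallin; Entrez Gene 1410, chr11:111908564-111923740), the small heat shock protein of muscle and lens, had 18.9 and 24.3 RPKM at 25 mM, against 11.7 and 13.8 RPKM at 5 mM (log2 change 0.71, SE 0.12, adjusted p = 0.00308). Its 25 mM libraries were above its 5 mM libraries but differed from each other by 0.34 on the log2 scale, the widest gap of any member in that group. HSPB2, a small heat shock protein gene that lies inside the RefSeq span of CRYAB on the opposite strand, had 7.85 and 6.77 RPKM at 25 mM, against 2.45 and 3.19 RPKM at 5 mM (log2 change 1.12, SE 0.12, adjusted p = 0.000282). Reads of these overlapping genes cannot be told apart by strand here, since strand-specific counting is not stated. The overlap is of gene spans, and whether the counted bases overlap was not examined. Other members have such neighbours too, among them DNAJB1 with TECR (up to 194 RPKM) and SYVN1 with MRPL49 (up to 94.1 RPKM). In mitochondria HSPE1 (HSP10), the lid of the HSPD1 folding chamber, was lower, with 452 and 465 RPKM at 25 mM, against 567 and 537 RPKM at 5 mM (log2 change -0.27, SE 0.05, adjusted p = 0.00357). HSPD1 (HSP60) itself overlapped, with 531 and 526 RPKM at 25 mM and 586 and 520.3 RPKM at 5 mM. SERPINH1 (HSP47; Entrez Gene 871, chr11:75562253-75572783), which guards procollagen in the ER, had 394 and 410 RPKM at 25 mM, against 231 and 296 RPKM at 5 mM (log2 change 0.62, SE 0.12, adjusted p = 0.00547). Both 25 mM libraries were above both 5 mM libraries.

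The same contrast was then read between the 2 cultures raised to 50 mM, which are other libraries of the same 2 starting conditions. Of the 14 members called at 25 mM against 5 mM, 13 were called in the same direction at 25 to 50 mM against 5 to 50 mM. Among these, 9 were higher and 4 lower. Both contrasts came from 1 fit of all 8 libraries with 1 shared spread. How many of all genes called in the first contrast were called the same way in the second is not given here. The 13 of 14 is thus not shown to be particular to the members. Among ER members, 9 of 20 were called higher at 25 to 50 mM than at 5 to 50 mM and 3 lower. Of the cytosolic members, 4 of 12 were higher there and 1 lower. Over all genes, 18.1% were called higher there and 23.3% lower. HSPA5 had 662 and 675 RPKM at 25 to 50 mM, against 359 and 363 RPKM at 5 to 50 mM (log2 change 0.89, SE 0.04, adjusted p = 3.5e-06). CALR had 1388 and 1386 RPKM at 25 to 50 mM, against 883 and 879 RPKM at 5 to 50 mM (log2 change 0.65, SE 0.04, adjusted p = 1.13e-05). HYOU1 had 103 and 115 RPKM at 25 to 50 mM, against 67.1 and 70.0 RPKM at 5 to 50 mM (log2 change 0.66, SE 0.06, adjusted p = 0.000162). In these 3 genes every library that started from 25 mM was above every library that started from 5 mM. CRYAB was the exception, with 21.8 and 23.7 RPKM at 25 to 50 mM and 24.8 and 24.0 RPKM at 5 to 50 mM (log2 change -0.10, SE 0.12, adjusted p = 0.566). Its low values were those of the 5 mM group alone. Another 6 members were called only between the raised cultures: BAG3, CHORDC1, DNAJB1, HSP90AA1 and SEL1L higher, and XBP1 lower, with log2 changes of 0.27, 0.20, 0.19, 0.25, 0.19 and -0.28. Whether each of these contrasts differs from that at 25 mM against 5 mM is the same test as the difference of the rises, given further on.

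**Figure D3:**
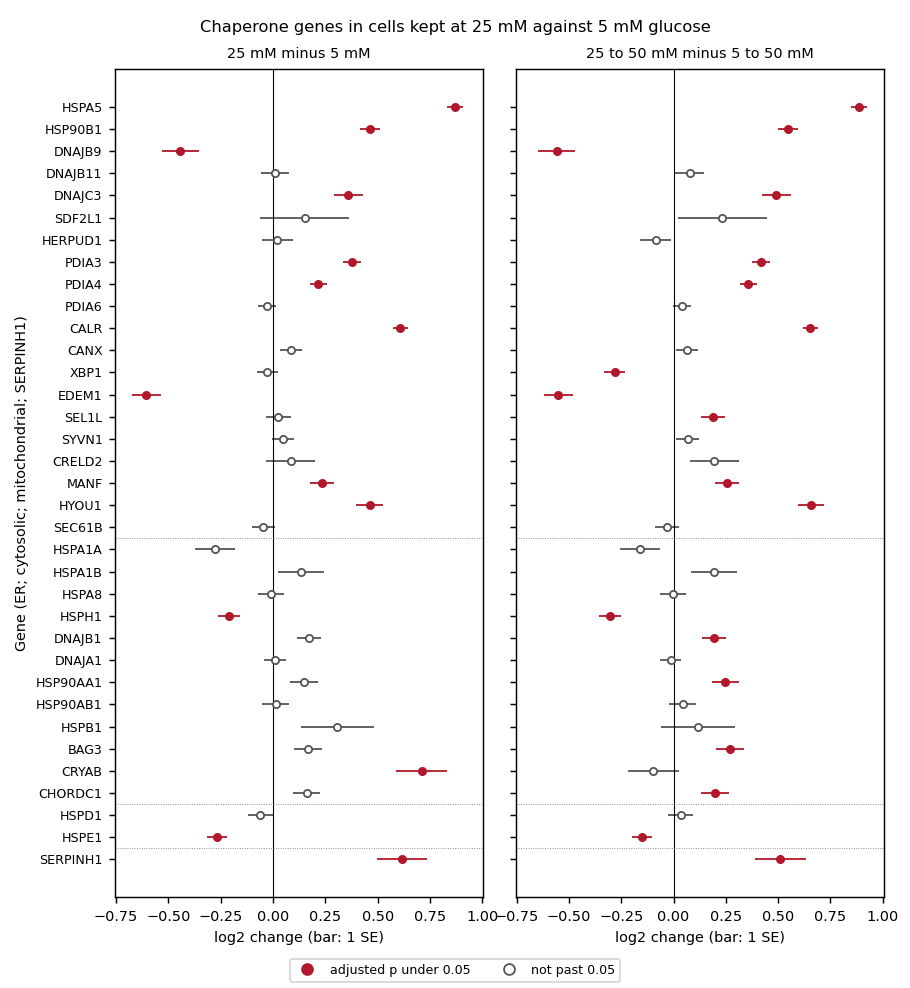
Points are log2 changes on the log2(RPKM + 1) scale with bars of 1 SE from the limma fit of all 8 libraries, for 25 mM minus 5 mM (left) and 25 to 50 mM minus 5 to 50 mM (right). Filled points passed an adjusted p of 0.05; HSPA5 lies at 0.87 and 0.89, EDEM1 at -0.61 and -0.55, and CRYAB at 0.71 and -0.10.

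Other genes of the unfolded protein response were called in both directions. Of 15 sensors and genes of the PERK arm, 4 were lower at 25 mM than at 5 mM (26.7%) and 2 higher (13.3%). Over all genes, 22.1% were lower and 17.0% higher, so these shares were near those of all genes. Values follow for the 4 largest changes, which were all lower. TRIB3, a pseudokinase induced by ATF4 and CHOP, had 9.16 and 9.22 RPKM at 25 mM, against 16.6 and 21.9 RPKM at 5 mM (log2 change -0.98, SE 0.14, adjusted p = 0.00108). PPP1R15A (GADD34), which reverses the translation block, had 85.8 and 85.9 RPKM at 25 mM, against 145 and 149.8 RPKM at 5 mM (log2 change -0.77, SE 0.04, adjusted p = 1.44e-05). DDIT3 (CHOP), a factor of the terminal response, had 27.5 and 29.0 RPKM at 25 mM, against 47.9 and 46.1 RPKM at 5 mM (log2 change -0.71, SE 0.07, adjusted p = 0.00016). The IRE1 gene ERN1 was low in all libraries, at 1.87 and 1.54 RPKM at 25 mM, against 3.67 and 3.13 RPKM at 5 mM (log2 change -0.70, SE 0.10, adjusted p = 0.00142). All 4 genes called lower had groups that did not overlap. Of 20 other ER folding genes tested, 6 were lower (30%) and 1 higher (5%). Among them ERP29, an ER protein of the isomerase family, had 199 and 201 RPKM at 25 mM, against 334 and 337 RPKM at 5 mM (log2 change -0.74, SE 0.05, adjusted p = 3.89e-05). The log2 change was -0.49 for the isomerase PDIA5, -0.47 for the ER reductase DNAJC10 and -0.28 for the main isomerase P4HB. Of 23 other genes of ER degradation and translocation, 4 were higher (17.4%) and 5 lower (21.7%), close to the shares over all genes. The largest log2 change of this list was that of FAM129A, at -0.53. Next came the ubiquitin-conjugating enzymes UBE2J1 at 0.42 and UBE2G2 at 0.35, and the translocon subunit SEC61G at -0.34. The median log2 changes of the 3 lists were -0.01, -0.15 and -0.02, against -0.0040 over all genes.

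Of 33 tested genes for heat shock factors and cytosolic co-chaperones that are no members, 5 were higher at 25 mM than at 5 mM. Another 3 were lower and 25 did not pass, with a median of 0.0043. The shares of 15.2% higher and 9.09% lower stand against 17.0% and 22.1% over all genes. DNAJB4, a J-domain partner of HSP70, had 109 and 102 RPKM at 25 mM, against 50.0 and 43.5 RPKM at 5 mM (log2 change 1.16, SE 0.07, adjusted p = 2.49e-05), a larger log2 change than that of any of the 35. HMOX1 (heme oxygenase 1, known as HSP32) had 18.5 and 19.6 RPKM at 25 mM, against 38.8 and 48.7 RPKM at 5 mM (log2 change -1.15, SE 0.14, adjusted p = 0.000528). HSPA4L, a relative of HSPH1, and HSPA2, another HSP70, had log2 changes of -0.62 and 0.47. Of 13 genes of collagen maturation beside SERPINH1, 2 were higher (15.4%) and 5 lower (38.5%). The procollagen lysyl hydroxylase PLOD1 had 84.4 and 85.2 RPKM at 25 mM, against 130.4 and 134 RPKM at 5 mM (log2 change -0.63, SE 0.05, adjusted p = 4.22e-05). KDELR3 and PLOD3 were lower as well, with log2 changes of -0.34 and -0.28. P3H2 was called higher, as SERPINH1 was (log2 change 0.43, SE 0.07, adjusted p = 0.00187). The list thus held calls both along and opposite to SERPINH1.

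Other features of the libraries moved with this contrast, in which 17.0% of all genes were called higher and 22.1% lower. Of 9 histone genes tested, 8 were lower at 25 mM, with a median log2 change of -2.10. The 16 listed histone genes summed to 52.1 to 55.8 RPKM at 25 mM, against 298 to 369 RPKM at 5 mM. Of 16 cytosolic ribosomal protein genes, 7 were higher and 0 lower, and they summed to 22731 to 22916 RPKM at 25 mM, against 19667 to 20533 RPKM at 5 mM. Of 12 fibroblast markers, 6 were higher and 5 lower, with sums of 6491 to 6853 RPKM at 25 mM, against 6499.6 to 7152 RPKM at 5 mM. The 16 cardiomyocyte markers summed to 3.21 to 4.63 RPKM at 25 mM, against 5.97 to 6.10 RPKM at 5 mM. The part of these features in the chaperone values was not tested.

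After the rise to 50 mM glucose few genes of any kind were called. From 5 to 50 mM, 0 of the 35 members passed limma's test within the 4 libraries, where 0.329% of 11849 genes were called. At an unadjusted p under 0.05 there were 3 higher members (CRYAB, XBP1 and DNAJB9) and 2 lower (PDIA4 and CALR), against 10.5% of all genes in either direction, and voom on the recovered reads called 0. The count depended on the 5 mM libraries, as did that over all genes. Leaving out a 5 mM library leaves an arm of 1, assumed to vary like the 5 to 50 mM pair, which was the closest of the 4 pairs. Without 5 mM replicate 1 the members called were 6 (CRYAB, HSPA8, HSPH1 and XBP1 higher, CRELD2 and SDF2L1 lower), and without 5 mM replicate 3 they were 5 (CRYAB, HSPB1 and XBP1 higher, HSP90B1 and PDIA4 lower). Over all genes the calls were 805 and 560 in these fits, against 39 with all 4 libraries. The 35 log2 changes ran from -0.20 to 0.89. The median was -0.07 for the ER members and 0.06 for the cytosolic ones, against -0.03 over all genes tested.

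CRYAB had 24.8 and 24.0 RPKM at 5 to 50 mM, against 11.7 and 13.8 RPKM at 5 mM (log2 change 0.89, SE 0.10, adjusted p = 0.052). Of the 35 this was the widest difference in this comparison. Both raised libraries were above both 5 mM libraries, and the adjusted p lay just above the threshold. CRYAB was called in 9 of 17 alternative settings, with limma adjusted p of 0.0028 to 0.28. The 16 cardiomyocyte markers summed to 8.14 to 9.07 RPKM at 5 to 50 mM, against 5.97 to 6.10 RPKM at 5 mM, and 0 of the 2 that could be tested were called by limma (1 at an unadjusted p under 0.05). The 16 histone genes summed to 457 to 469 RPKM at 5 to 50 mM, against 298 to 369 RPKM at 5 mM. The part of either in the CRYAB values was not tested. The 5 mM libraries here are the same that made CRYAB differ between 25 mM and 5 mM, so these results share their low values. HSPB2, its overlapping neighbour, had 4.37 and 4.16 RPKM at 5 to 50 mM and 2.45 and 3.19 RPKM at 5 mM. XBP1, the transcription factor of the IRE1 arm, had 98.3 and 93.9 RPKM at 5 to 50 mM, against 78.0 and 74.6 RPKM at 5 mM (log2 change 0.33, SE 0.06, adjusted p = 0.163), and DNAJB9, known as a target of spliced XBP1, had 18.9 and 20.1 RPKM at 5 to 50 mM, against 16.4 and 16.4 RPKM at 5 mM (log2 change 0.23, SE 0.08, adjusted p = 0.391). Neither passed, although the groups of both genes were apart, as they were for 42.6% of all genes. HSPH1 had 169.5 and 165 RPKM at 5 to 50 mM, against 157 and 145 RPKM at 5 mM (log2 change 0.15, SE 0.06, adjusted p = 0.492).

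On the lower side, PDIA4 had 124 and 124 RPKM at 5 to 50 mM, against 144 and 141 RPKM at 5 mM (log2 change -0.20, SE 0.05, adjusted p = 0.289). SEL1L had 29.4 and 31.7 RPKM at 5 to 50 mM, against 34.6 and 33.5 RPKM at 5 mM (log2 change -0.15, SE 0.07, adjusted p = 0.55). EDEM1 had 19.7 and 19.3 RPKM at 5 to 50 mM, against 22.0 and 21.6 RPKM at 5 mM (log2 change -0.15, SE 0.07, adjusted p = 0.544). HSP90B1, the ER HSP90, had 517 and 517 RPKM at 5 to 50 mM, against 594 and 548 RPKM at 5 mM (log2 change -0.14, SE 0.06, adjusted p = 0.491). None of these 4 passed the test. CALR had 883 and 879 RPKM at 5 to 50 mM and 957 and 963 RPKM at 5 mM, and HSPA5 had 359 and 363 RPKM at 5 to 50 mM, against 356 and 346 RPKM at 5 mM. All 4 of these HSPA5 libraries were below the lowest library of the cultures kept at 25 mM.

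From 25 to 50 mM, 0 of the 35 members passed, where 0.00876% of 11422 genes (1 gene) were called. At an unadjusted p under 0.05 there was 1 higher member, CHORDC1, and 0 lower, against 9.25% of all genes, and voom called 0. Without 25 to 50 mM replicate 2, HSPB1 was called lower, in a fit that called 777 genes and took its spread from the 25 mM pair alone. Log2 changes ran from -0.10 to 0.18, with medians of 0.02 for the ER members and 0.07 for the cytosolic ones, against -0.03 over all genes. CHORDC1, whose promoter window holds HSE matches, had 68.4 and 74.4 RPKM at 25 to 50 mM, against 64.7 and 61.2 RPKM at 25 mM (log2 change 0.18, SE 0.06, adjusted p = 0.502). HYOU1 had 103 and 115 RPKM at 25 to 50 mM, against 99.5 and 98.8 RPKM at 25 mM (log2 change 0.13, SE 0.06, adjusted p = 0.554). In 14 members both raised libraries were above both 25 mM libraries, and in 6 both were below, while the groups did not overlap in 43.5% of all genes. HSPE1 and HSPA8 were among the 14, with log2 changes of 0.10 (SE 0.04, adjusted p = 0.543) and 0.10 (SE 0.04, adjusted p = 0.554). EDEM1, CALR, SYVN1 and PDIA3 were among the 6, with log2 changes of -0.10, -0.08, -0.06 and -0.06 and limma adjusted p of 0.691, 0.557, 0.712 and 0.664. XBP1 had 77.2 and 80.5 RPKM at 25 to 50 mM and 74.5 and 75.1 RPKM at 25 mM, and HSPA5 had 662 and 675 RPKM at 25 to 50 mM, against 639 and 645 RPKM at 25 mM.

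**Figure D4:**
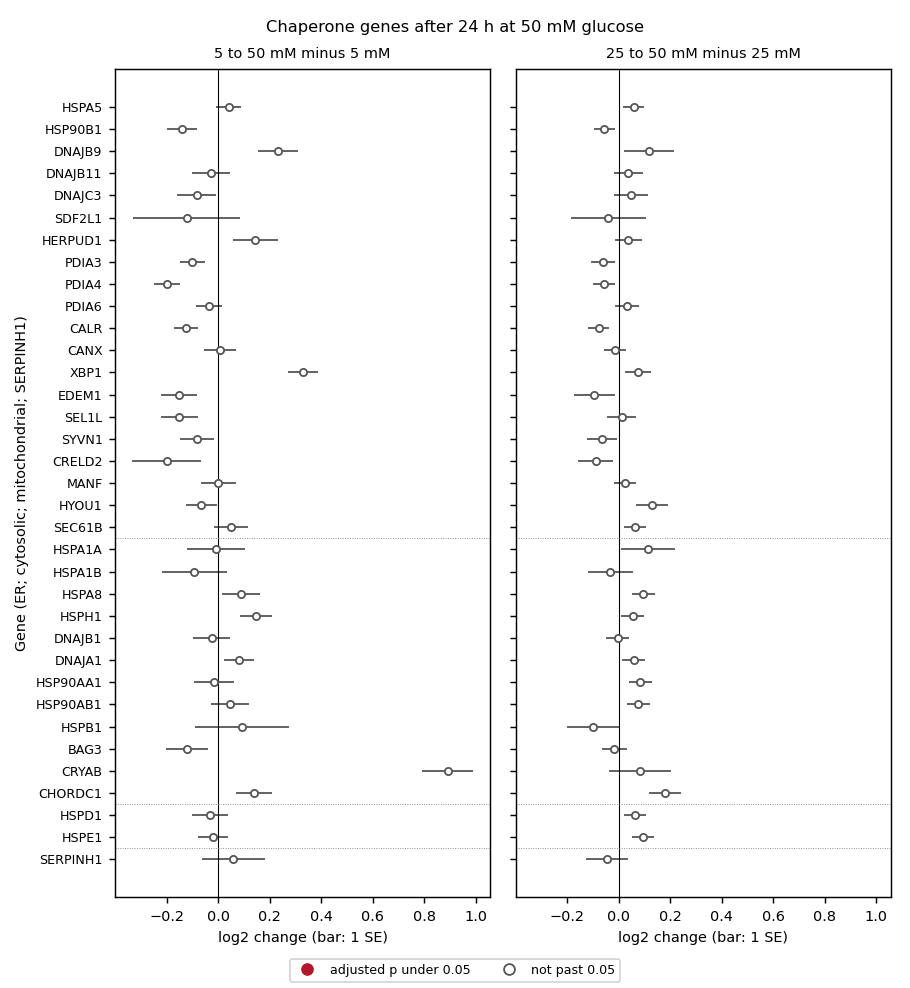
Points are log2 changes on the log2(RPKM + 1) scale with bars of 1 SE from the limma fits of 4 libraries each, for 5 to 50 mM minus 5 mM (left) and 25 to 50 mM minus 25 mM (right). No point is filled, since 0 of the 35 genes passed an adjusted p of 0.05; CRYAB lies at 0.89 on the left and most genes lie near 0 on both sides.

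The rises were compared directly as the rise from 5 mM minus the rise from 25 mM in 1 fit of all 8 libraries. In that test 0 of the 35 members passed, as 0.0251% of 11941 genes did, and at an unadjusted p under 0.05 there were 2 higher (CRYAB and XBP1) and 1 lower (PDIA4), against 6.04% of all genes, while voom called 0. CRYAB averaged 24.4 ± 0.604 RPKM at 5 to 50 mM, against 12.7 ± 1.47 RPKM at 5 mM, and 22.8 ± 1.36 RPKM at 25 to 50 mM, against 21.6 ± 3.80 RPKM at 25 mM (SD, n = 2 each). The difference of its rises was the largest of the set (log2 change 0.81, SE 0.17, adjusted p = 0.406). XBP1 averaged 96.1 ± 3.15 RPKM at 5 to 50 mM, against 76.3 ± 2.42 RPKM at 5 mM, and 78.9 ± 2.37 RPKM at 25 to 50 mM, against 74.8 ± 0.436 RPKM at 25 mM, with a smaller difference of rises (log2 change 0.25, SE 0.07, adjusted p = 0.569). On the other side, the rise from 5 mM was below the rise from 25 mM for HYOU1 (log2 change -0.19, SE 0.09, adjusted p = 0.86), SEL1L (log2 change -0.16, SE 0.08, adjusted p = 0.887), PDIA4 (log2 change -0.14, SE 0.06, adjusted p = 0.804) and HSPE1 (log2 change -0.12, SE 0.07, adjusted p = 0.95), none of which passed. In the 8 other lists of chaperone and stress genes, 0 genes passed limma's test or voom in either rise or in their difference. At an unadjusted p under 0.05 limma gave 7 higher and 8 lower of 135 from 5 to 50 mM, 3 and 3 of 134 from 25 to 50 mM, and 5 and 4 of 135 for the difference of the rises.

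At 5 mM and at 25 to 50 mM the replicates differed most in GC-rich members. Between the libraries of a group, chi-square per degree of freedom over all genes was 15.9 at 5 mM, 7.57 at 25 to 50 mM, 6.49 at 25 mM and 2.54 at 5 to 50 mM. At 5 mM, replicate 3 exceeded replicate 1 in GC-rich members, and the gap correlated with the GC content of the coding sequence over the 35 genes (Pearson's r = 0.79, against 0.64 over 11897 genes), as a description of 2 libraries. At 25 to 50 mM the correlation of replicate 3 minus replicate 2 was -0.61, against -0.53 over all genes. The value for 25 mM was 0.15, and that for 5 to 50 mM was -0.21. SDF2L1, with 66.1% GC, had the widest gaps, 0.63 at 5 mM and -0.44 at 25 to 50 mM on the log2 scale. HSPB1 (68.6% GC), CRELD2 (61.9% GC) and SERPINH1 (62.0% GC) followed the same order of replicates. SDF2L1, HSPB1 and CRELD2 were called in none of the comparisons with all libraries in and no GC correction. SERPINH1 was called at 25 mM against 5 mM with a gap of 0.36 between its 5 mM libraries, and remained called after a correction of all libraries for GC content, which also called HSPB1 there.

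**Figure D5:**
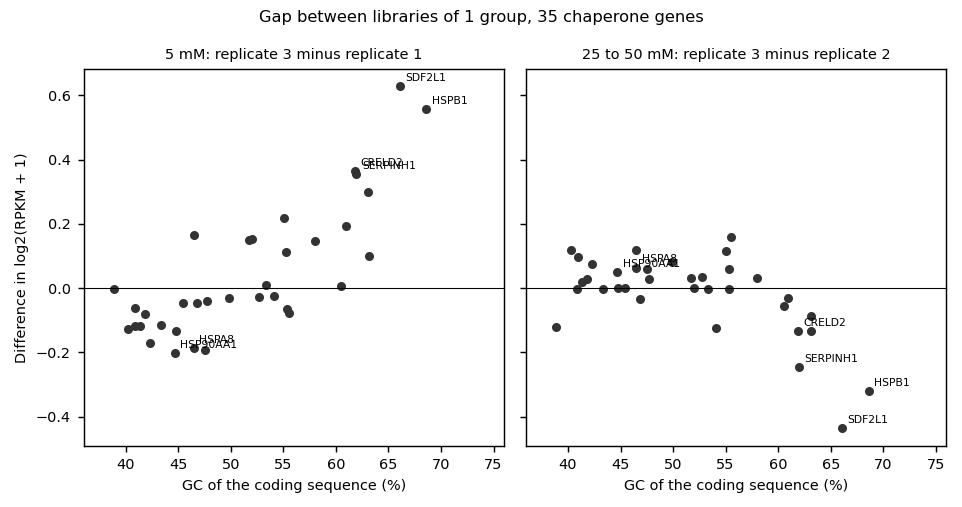
Each point is 1 of the 35 genes, with the GC content of its coding sequence (%) against the difference in log2(RPKM + 1) between the 2 libraries of a group, at 5 mM (left) and 25 to 50 mM (right). Points rise with GC on the left (r = 0.79) and fall on the right (r = -0.61), with SDF2L1 and HSPB1 at the far ends.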

How the data were processed

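Total RNA of 8 AC16 libraries was extracted with TRIzol, and STAR and the hg38 build are named in the submitters' processing notes; the counting tool, the annotation and strand-specific counting are not given in the sources used here. The authors deposited RPKM values in 2 tables, 1 for each starting glucose, and these were joined on the gene number; 0 columns belonged to no sample. Whole reads, library totals and gene lengths were recovered from the RPKM values (100% of values above 0 whole within 0.01). The upper quartiles of RPKM differed by 1.065 times at most, so the tables were compared.

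Values were taken as log2(RPKM + 1), so that changes of low genes are understated. A gene was kept if 2 or more of the fitted libraries reached 1 RPKM. Moderated two-sided tests were made in limma 3.58.1 (R 4.3.3), allowing for a mean-variance trend, and p-values were adjusted by Benjamini-Hochberg over the whole table against a threshold of 0.05. Each rise was fitted on its own 4 libraries. The difference of the rises and 25 mM against 5 mM were fitted on all 8, across both tables, with 1 shared spread. The test was checked on simulated data. Where a sentence gives an SE and an adjusted p, both come from limma.

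The members and the lists of other genes were chosen with earlier results of these data known. All members are named with values. Statistics are given for each member past the threshold and for up to 4 more per direction with a mean of at least 5 RPKM, groups that do not overlap and the largest changes, and for up to 4 called genes per other list. GC content and coding lengths came from GENCODE 29, and coordinates and promoter windows from RefSeq (GRCh38.p14). Alternatives were other pseudocounts, filters, normalizations, fits and thresholds, each library left out in turn and, added after the data were seen, a GC correction (a spline with 5 degrees of freedom per library) and 25 to 50 mM against 5 to 50 mM. Counts of reads were used for depth and for voom only. Floors cover counting error only.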

Additional observations from a re-analysis of the deposited data

How the results depend on the processing

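At 25 mM against 5 mM, 14 members were called and the alternatives gave 12 to 20, the most after the GC correction. The sign turned for CRYAB between the cultures raised to 50 mM (log2 change -0.10) and for PDIA6, which was not called, with quantile normalization (0.050) and between the raised cultures (0.040). HSPH1 lost its call with quantile normalization, under the replicate block and without 25 mM replicate 1, and MANF without either 25 mM library. For 5 to 50 mM against 5 mM, where 0 members were called, 1 (CRYAB) was called with quantile normalization, median centring, the GC correction, robust estimation, a threshold of 0.1 or a filter on a mean of 5 RPKM, and 2 (CRYAB and XBP1) in a joint fit of all 8 libraries. Leaving out 1 library gave 0 to 6 there. For 25 to 50 mM against 25 mM, leaving out 1 library gave 0 to 1 and each other alternative 0. For the difference of the rises each alternative gave 0. The cause of these changes was not tested. Of the values of named members under alternatives, 750 kept direction and side of the threshold, 33 newly passed, 5 no longer passed and 3 turned. Other filters or thresholds, robust estimation, omitting the trend and leaving out a library of another group cannot alter a log2 change. Its direction was thus fixed in these settings. The tally also counts 25 to 50 mM against 5 to 50 mM, which is a contrast of other libraries.

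Within its own 4 libraries a rise could not be fitted with the replicate number as a block, since its groups share 1 number. In a joint fit with the replicate block, which assumes that numbers match across the tables and left few residual degrees of freedom, 0 members were called for either rise and for their difference, and 13 at 25 mM against 5 mM. The gaps between replicates 3 and 1 at 25 mM and at 5 mM correlated at 0.26 over 11941 genes, with only these groups to compare, so the samples share a number and pairing is not shown. Over all genes the spread between the 2 libraries of a group exceeded counting error, with chi-square per degree of freedom of 2.54 to 15.9. This need not hold for members with few reads, such as CRYAB (133 to 348 reads) and DNAJB9 (196 to 314 reads). For single members the part of counting error in the spread was not tested.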

Other observations

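Some chaperones outside the set also differed between the cultures, in a contrast where 17.0% of all genes were called higher and 22.1% lower. Of 14 genes of the cytosolic folding chamber TRiC and its helper prefoldin, 5 were higher at 25 mM than at 5 mM by limma (35.7%). Another 2 were lower (14.3%). The median log2 change was 0.12, against -0.0040 over all genes tested. The TRiC subunits CCT3 and CCT5 had 419 and 416 RPKM and 751 and 750.1 RPKM at 25 mM, against 374 and 345 RPKM and 694 and 617 RPKM at 5 mM. The prefoldin subunits PFDN5 and PFDN6 were lower, with 364 and 410.3 RPKM and 35.5 and 32.7 RPKM at 25 mM, against 484 and 455 RPKM and 44.2 and 42.1 RPKM at 5 mM.

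Among 12 mitochondrial chaperones and proteases beside HSPD1 and HSPE1, 2 were higher at 25 mM and 2 lower. These are 16.7% each way, against 17.0% higher and 22.1% lower over all genes. TRAP1, the mitochondrial HSP90, had 81.8 and 79.0 RPKM at 25 mM, against 63.3 and 64.8 RPKM at 5 mM. HSPA9, the mitochondrial HSP70, had 249 and 260.3 RPKM at 25 mM, against 327 and 303 RPKM at 5 mM. Their groups did not overlap, and their log2 changes were 0.32 and -0.31 (limma adjusted p = 0.0011 and 0.00244).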
